A study of Mus musculus with 4 samples.

Results

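The genes described here make or modify the interstitial matrix, the fibrous material between cells. They are 40 genes, chosen by matching a list of symbols to the rows of the deposited count tables, and all 40 were found among 78028 rows. The list was drawn up with earlier results of these data known, so its contrasts with all genes are descriptions only. They comprise 8 fibrillar collagen chains, 5 other collagen chains, 6 elastic fibre and adhesive glycoproteins, 4 matricellular proteins, 3 proteoglycans, 6 genes of prolyl hydroxylation, 3 lysyl hydroxylases and 5 lysyl oxidases. RNA came from 4 cultures of E14TG2a, a mouse embryonic stem cell line, each put through the A-HIC (advanced hepatic-inducing cocktail) protocol separately and labelled hepatocyte-like. The 4 libraries, numbered 1 to 4 as in the labels, form 1 group without untreated stem cells, another line or hepatocytes to compare with. The series was made to assess hepatic identity and maturity against published hepatocyte data, which are not analysed here. All 4 cultures derive from a single cell line, so what is compared below is 1 culture with another.

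A collagen molecule is a triple helix of 3 chains. In the endoplasmic reticulum, prolyl hydroxylases give the helix its stability and lysyl hydroxylases prepare its cross-links, while outside the cell lysyl oxidases join collagen and elastin chains covalently. In the liver, stellate cells and portal fibroblasts are the main source of this matrix, and its excess is fibrosis, whereas hepatocytes supply the fibronectin of plasma.

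Libraries 1 to 4 held 37.8, 40.2, 29.5 and 40.1 M counts, and the depth gave every one of the 40 genes at least 105 counts in each library. The counts of Col2a1, the scarcest of the 40, were 179, 105, 125 and 153, and the exact 95% Poisson interval of the lowest was 85.9 to 127 counts, for counting error only. The counts may hold both ends of read pairs, which are not independent, and the interval would then be too narrow. Levels per gene length are given as TPM, the deposited counts scaled by gene length and by depth. The label was checked against marker genes. Of 15 hepatocyte markers 2 stood at 1 TPM or more in all 4 libraries, Cyp2e1 had 0 counts in each, and albumin (Alb, chosen after its values were seen) had 0.455, 7.19, 0 and 0.492 TPM. All 10 pluripotency markers stood above 100 TPM on average, led by Dppa5a at 2751 ± 989 TPM (SD, n = 4). The data thus go against the label, and "labelled hepatocyte-like" is meant as the label and not as a cell type. No library repeated another: libraries 1 and 3 were the closest pair (chi-square per gene 11.99) and libraries 2 and 4 the next (19.7), against 32.8 to 81.5 for the other pairs. Separate cultures exceed counting noise at this depth, and counting both ends of read pairs would raise all of these values, so they serve only to rank the pairs.

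Promoters are shown for 4 of the genes, picked after their values were seen, because they stand for different levels and patterns across libraries. Col1a2 and Col3a1 encode abundant fibrillar chains, P4ha1 the main catalytic prolyl hydroxylase subunit here, and Postn a matricellular protein with another order of libraries. Each sequence is the 250 bases before the RefSeq start on build GRCm38.p6, plus strand, at chr6:4505368-4505617 for Col1a2, chr1:45311288-45311537 for Col3a1, chr10:59323046-59323295 for P4ha1 and chr3:54360857-54361106 for Postn, where the last of 2 listed starts was taken. Capitals mark the words searched on both strands. The TATA box was searched as TATAAA. The box that NF-Y binds was searched as CCAAT, and the GC box that Sp1 binds as GGGCGG. The core of hypoxia response elements was searched as ACGTG. The word of AP-1 factors was searched as TGANTCA.
Col1a2: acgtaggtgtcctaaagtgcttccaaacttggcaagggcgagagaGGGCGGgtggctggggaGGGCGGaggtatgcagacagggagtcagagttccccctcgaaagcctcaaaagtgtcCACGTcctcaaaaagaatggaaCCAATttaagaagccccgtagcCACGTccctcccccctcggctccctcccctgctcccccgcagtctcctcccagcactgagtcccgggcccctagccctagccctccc
Col3a1: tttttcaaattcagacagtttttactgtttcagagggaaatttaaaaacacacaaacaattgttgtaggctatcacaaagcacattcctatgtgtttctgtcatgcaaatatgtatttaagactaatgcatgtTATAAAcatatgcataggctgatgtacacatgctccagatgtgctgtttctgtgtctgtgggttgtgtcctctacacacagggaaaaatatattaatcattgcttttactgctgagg
P4ha1: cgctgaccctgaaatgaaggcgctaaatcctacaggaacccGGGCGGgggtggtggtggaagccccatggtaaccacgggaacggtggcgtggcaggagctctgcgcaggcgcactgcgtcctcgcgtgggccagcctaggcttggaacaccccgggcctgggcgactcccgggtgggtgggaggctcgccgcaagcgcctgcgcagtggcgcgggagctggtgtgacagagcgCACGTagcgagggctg
Postn: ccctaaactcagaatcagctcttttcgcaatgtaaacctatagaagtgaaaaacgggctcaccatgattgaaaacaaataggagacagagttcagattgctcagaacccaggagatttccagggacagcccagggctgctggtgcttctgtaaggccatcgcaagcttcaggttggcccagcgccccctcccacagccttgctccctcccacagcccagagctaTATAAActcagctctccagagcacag
The Col1a2 window held 2 GC boxes, a CCAAT box and 2 ACGTG words on the opposite strand, and no marked words overlapped in the 4 windows. In Col3a1 the TATAAA word began 117 bases before the start, while in Postn it began 26 bases before it, the usual place of a TATA box. P4ha1, a gene known as a hypoxia target, held 1 GC box and 1 ACGTG word, which lay 16 bases before the start on the opposite strand. RefSeq promoters were matched for 25 of the 40 genes. GC boxes were found in 18 of these 25 (72%), against 35.4% of 27025 genes with a promoter, and ACGTG in 8 (32%), against 18.5%. TATAAA was found in 6 (24%), against 14.3%, CCAAT in 9 (36%), against 37.5%, and TGANTCA in 1 (4%), against 7.82%. A matching word is a description and not a binding site, and factor binding was not measured.

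All 40 genes were expressed, that is, at 1 TPM or more in all 4 libraries, against 63.4% of 19895 protein-coding genes. A mean of 10 TPM or more was reached by 36 of the 40, against 46.6% of protein-coding genes, and 100 TPM or more by 18, against 10.3%. The median of the mean log2(TPM + 0.1) values was 6.31 for the 40 genes, against 2.91 for all protein-coding genes. Together they held 0.953, 1.64, 0.842 and 1.30% of the counts of libraries 1 to 4, a mean of 1.19% ± 0.364 (SD, n = 4). Libraries 2 and 4 thus gave these genes larger shares than libraries 1 and 3. In bulk RNA, fewer producing cells and less RNA per cell cannot be told apart.

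**Figure D1:**
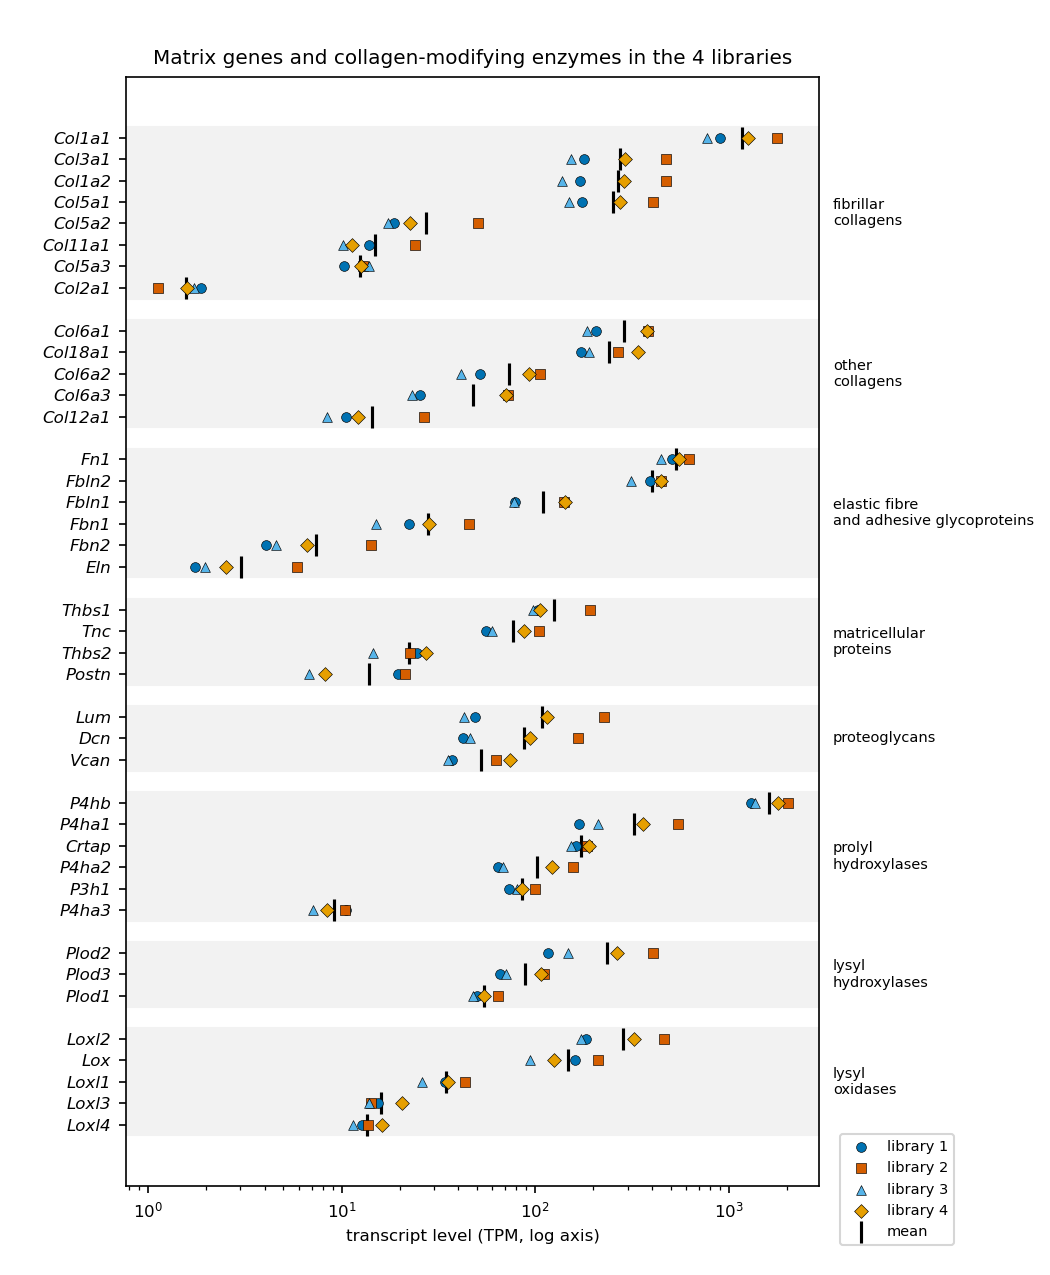
TPM (log axis) of each of the 40 genes in libraries 1 to 4, grouped by role and ordered by mean within each role. The means run from 1.58 TPM for Col2a1 to 1618 TPM for P4hb, and the point for library 2 lies at the upper end for most structural genes.

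Fibrillar collagens spanned the whole range of levels. Col1a1, the main chain of type I collagen, had 905, 1772, 769.9 and 1250.05 TPM in libraries 1 to 4 (1174 ± 447 TPM, SD, n = 4) and ranked 54th of the protein-coding genes. Its partner chain Col1a2 had 169.7, 474, 137 and 288 TPM. Type III collagen (Col3a1), which mixes with type I in soft tissues, had 179, 471, 154 and 289.7 TPM. In all 3 genes library 2 was highest and library 3 lowest, with folds between them, in CPM (counts scaled by depth alone), of 2.18, 3.28 and 2.90. Type V collagen starts type I fibrils, and its chain Col5a1 had 175, 406, 149 and 275 TPM. Col5a2 had 18.7, 50.5, 17.4 and 22.5 TPM, with library 2 apart from the other 3. Those levels were lower than the Col5a1 levels in every library. The minor chain Col5a3 had 10.3, 12.9, 13.9 and 12.6 TPM and Col11a1, a chain best known from cartilage, 13.9, 23.8, 10.1 and 11.3 TPM. Col2a1, the main cartilage collagen, stood at 1.88, 1.12, 1.72 and 1.59 TPM, and library 2, the highest for most fibrillar chains, was its lowest. Its log2 ratio to Col1a1 was -9.40 ± 0.82. Of the 9 chondrocyte markers 4 were expressed, led by Hapln1 at 8.00 ± 2.44 TPM (SD, n = 4), and Cnmd had 0 counts in every library.

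Type I collagen is normally a heterotrimer with Col1a1 chains in excess over Col1a2. The log2 ratio of Col1a1 to Col1a2 was 2.23 ± 0.27 (SD, n = 4), a 4.69-fold excess of Col1a1 that was present in every library. The union of annotated exons of Col1a2 is longer than its longest transcript, and with the length of the longest transcript in place of the union the ratio was 1.16 (2.24-fold). Col3a1 was lower than Col1a1 in every library, with a log2 ratio of -2.17 ± 0.20 (and -1.50 by longest transcript). Col5a1 was above Col5a2 by 3.23 ± 0.26 on the log2 scale (2.71 by longest transcript), Col5a3 below Col5a1 by a log2 ratio of -4.22 ± 0.65, and Col11a1 below Col5a1 by -4.05 ± 0.41 (-3.33). Against basement membrane collagen, the log2 ratio of Col1a1 to Col4a1 was -0.21 ± 0.54, within its spread, whereas Col1a2 was below Col4a2 in every library at -1.86 ± 0.37 (-0.68 by longest transcript). Col4a1 itself had 629, 2508, 855 and 2021 TPM.

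Of the other collagens, type VI forms beaded filaments around cells. Col6a1 had 206, 382, 186 and 378 TPM, Col6a2 52.1, 105, 41.5 and 93.3 TPM and Col6a3 25.5, 71.99, 23.1 and 70.8 TPM. In all 3 chains, libraries 2 and 4 were close to each other and above libraries 1 and 3. Col6a1 exceeded Col6a2 by 2.00 ± 0.13 on the log2 scale (1.34 by longest transcript), while Col6a3 was below Col6a1 by a log2 ratio of -2.71 ± 0.35, in every library. Col18a1, which sits at basement membranes and releases endostatin, had 172, 267, 189.98 and 339 TPM, and Col12a1, which binds along fibrils, had 10.5, 26.5, 8.38 and 12.2 TPM. Col18a1 was highest in library 4 and Col12a1 in library 2, and their log2 ratio was 4.15 ± 0.64.

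Fibronectin (Fn1), an adhesive protein on which cells assemble other matrix, had 511, 621, 446 and 555 TPM, a narrow range for this group. Fbln2 had 392, 446, 314 and 447 TPM and Fbln1 78.9, 141, 77.7 and 143 TPM, both proteins of elastic fibres and basement membranes. Both fibulins were highest in libraries 2 and 4, and Fbln1 was the lower one in every library (log2 ratio -1.91 ± 0.32). Fibrillin-1 (Fbn1), the core of microfibrils, had 22.3, 45.5, 15.1 and 28.2 TPM, and Fbn2, its developmental relative, 4.06, 14.2, 4.59 and 6.61 TPM. Fbn2 was lower than Fbn1 throughout (log2 ratio -1.97 ± 0.36). Of the Fbn1 exon bases, 20.1% lie under Gm9913 on the opposite strand, and reads there cannot be assigned to a strand in these libraries. Elastin (Eln) stood at 1.76, 5.90, 1.98 and 2.51 TPM, below every other structural gene of the 40 except Col2a1 by mean TPM.

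The matricellular proteins bind cells and growth factors without building fibres. Thbs1, which can activate latent TGF-beta, had 103, 193, 97.04 and 106 TPM, with library 2 apart from the rest, and Thbs2 had 24.5, 22.5, 14.5 and 27.4 TPM. Thbs1 exceeded Thbs2 by 2.46 ± 0.55 on the log2 scale. Tenascin C (Tnc) had 55.8, 105, 59.7 and 87.9 TPM. Periostin (Postn), whose promoter is shown above, had 19.5, 21.2, 6.74 and 8.17 TPM, with libraries 1 and 2 above libraries 3 and 4 and a fold of 2.98 in CPM between the highest and the lowest.

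The proteoglycans had the largest spread of any role, the median SD of their log2(CPM + 1) values being 0.88. Lumican (Lum) had 48.6, 225, 43.1 and 114 TPM and decorin (Dcn) 42.3, 167, 46.05 and 94.5 TPM, both small leucine-rich proteoglycans that regulate fibril width. Library 2 was highest in both, 4.96-fold above library 3 for Lum and 3.66-fold above library 1 for Dcn in CPM. Their log2 ratio, Lum over Dcn, was 0.20 ± 0.22, positive in 3 of 4 libraries, and -0.11 by longest transcript, so their order was not settled. Versican (Vcan), a large chondroitin sulfate proteoglycan, had 37.1, 62.6, 35.6 and 73.96 TPM.

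Collagen prolyl 4-hydroxylase is a tetramer of catalytic P4ha chains and P4hb, which also serves as a protein disulfide isomerase. P4hb was the most abundant of the 40 genes at 1301, 2010.1, 1362 and 1801 TPM (1618 ± 343 TPM, SD, n = 4), the 37th highest protein-coding gene. P4ha1 had 169, 547, 211 and 360.2 TPM, P4ha2 63.9, 156, 68.01 and 122 TPM and P4ha3 10.6, 10.4, 7.13 and 8.39 TPM. P4ha1 and P4ha2 were both highest in library 2 and lowest in library 1, whereas P4ha3 was highest in library 1. P4ha2 was below P4ha1 by a log2 ratio of -1.60 ± 0.17 (-0.60 by longest transcript), P4ha3 below P4ha1 by -4.99 ± 0.75, and P4hb above P4ha1 by 2.46 ± 0.46, each in all 4 libraries. Crtap and P3h1, partners in the complex that 3-hydroxylates proline, had 162, 186, 154 and 189 TPM and 73.4, 99.97, 80.9 and 85.8 TPM. They were among the steadiest of the 40, and per gene length P3h1 was the lower one by a log2 ratio of -1.03 ± 0.14 (-0.84 by longest transcript). Without scaling by length, in CPM, the ratio was 0.09, so this order rests on the gene lengths.

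Of the lysyl hydroxylases, Plod2 acts on the ends of the chains, where cross-links form, and had 117, 406, 148 and 264 TPM. Plod1, which acts on the helix, had 50.1, 64.1, 47.98 and 54.6 TPM, and Plod3, which also adds sugars, 66.1, 111, 70.8 and 107 TPM. Plod2 was above both in every library, with log2 ratios of -1.94 ± 0.65 for Plod1 over Plod2 and -1.26 ± 0.45 for Plod3 over Plod2. It was also the one that differed most between cultures, 3.22-fold between libraries 2 and 1, against 1.27-fold for Plod1, both in CPM. Plod3 shares 11.9% of its exon bases with other genes, Znhit1 on the opposite strand and Mir702 on its own.

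Lysyl oxidase (Lox), the founding member of the cross-linking enzymes, had 159.9, 211, 94.3 and 125 TPM, and Loxl2, which also cross-links type IV collagen, 183, 461, 173 and 324 TPM. Loxl2 was the higher one in every library (log2 ratio 0.89 ± 0.51). Loxl1, which acts in elastic fibres, had 34.3, 43.2, 26.05 and 35.6 TPM and was lower than Lox (log2 ratio -2.04 ± 0.25). Loxl3 and Loxl4 had 15.4, 14.1, 13.8 and 20.4 TPM and 12.8, 13.7, 11.4 and 16.2 TPM. Loxl2 was highest in libraries 2 and 4, as were most collagens, whereas Lox was highest in libraries 1 and 2 and Loxl3 in libraries 1 and 4. Loxl3 shares 11.6% of its exon bases with Htra2.

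Of the 23 gene pairs compared, 21 had 1 sign in all 4 libraries, the exceptions being Lum over Dcn and Col1a1 over Col4a1. An exact two-sided sign-flip permutation test over 4 libraries cannot reach p = 0.05, so these ratios carry no call and are given with their SD. The sign of Lum over Dcn changed with the length of the longest transcript and also in CPM (-1.05), where the sign of P3h1 over Crtap changed as well (0.09).

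**Figure D2:**
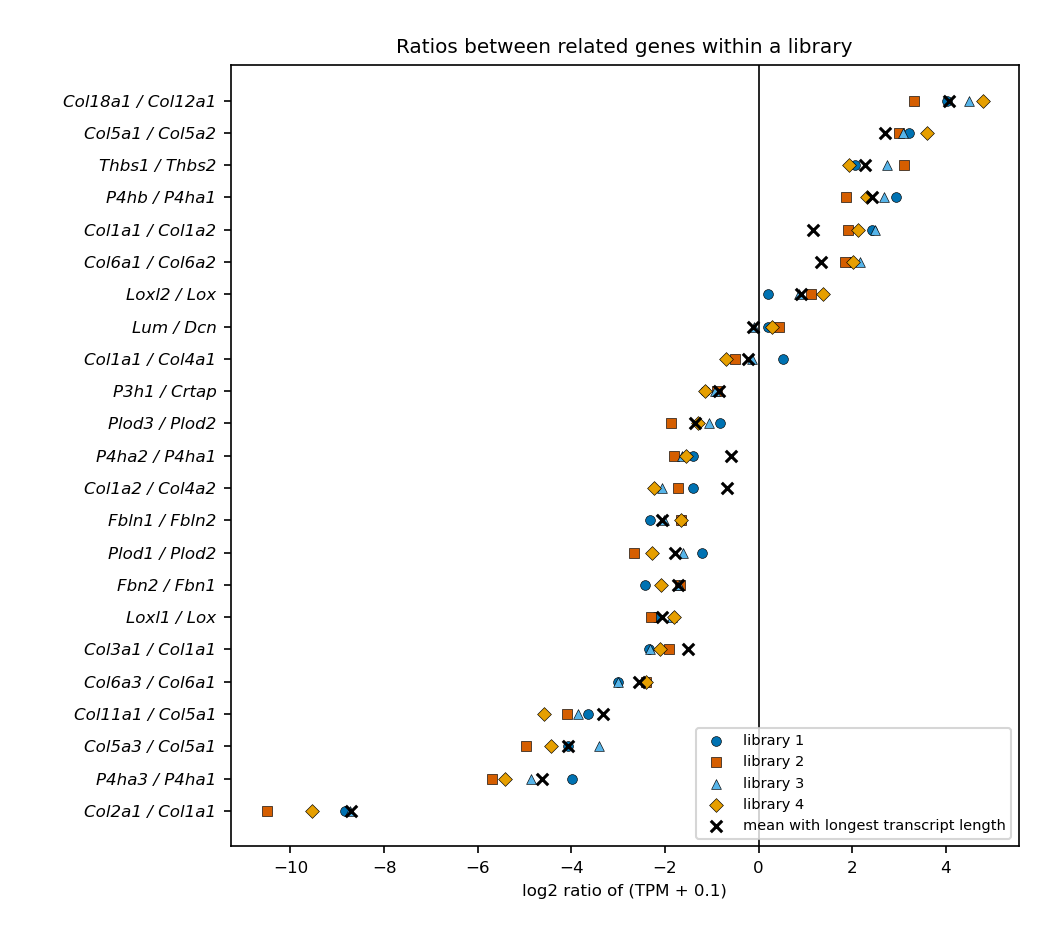
Log2 ratio of TPM within 23 gene pairs, 1 point per library, with crosses at the mean computed from longest transcript lengths and a line at 0 where both genes are equal. Most pairs lie wholly on one side of 0, for example Col1a1 over Col1a2 at 2.23 ± 0.27, while Lum over Dcn lies at 0.20 ± 0.22.

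The spread between cultures was larger for most of the 40 genes than for the median gene. The SD of log2(CPM + 1) across the 4 libraries had a median of 0.49 over the 40 genes, against 0.18 over all 15194 genes with a mean of 1 CPM or more. It lay above the 90th percentile of these genes for 25 of the 40, a place that 10% of all genes hold. The excess was smaller by the dispersion that edgeR estimates. That measure leaves out counting noise, scales the libraries differently and draws each gene toward genes of similar level. It also covers a different set of genes, and which of these differences made the excess smaller was not tested. By that measure 12 of the 40 lay above the 90th percentile of 17398 genes and 30 above their median. The largest SDs belonged to Lum (1.06), Dcn (0.88), Col6a3 (0.85), Postn (0.81), the enzyme gene Plod2 (0.763) and Col1a2 (0.759). The smallest belonged to Crtap (0.11), P3h1 (0.14), Plod1 (0.14) and Col5a3 (0.15). The highest library was at least 2 times the lowest for 21 of the 40, against 14% of all genes. This count rested on library 2: without it, 9 of the 40 were at that ratio, against 8.65% of all genes, while 19 were above the 90th percentile of SD. The median SD was 0.56 for the 26 structural genes and 0.26 for the 14 enzyme and enzyme-partner genes. A large spread was not particular to the 40. The median SD was 0.62 for basement membrane genes and 0.79 for parietal endoderm markers, 2 lists that share genes. In the other matrix lists it ran from 0.21 (collagen folding and export) to 0.53 (other proteoglycans).

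**Figure D3:**
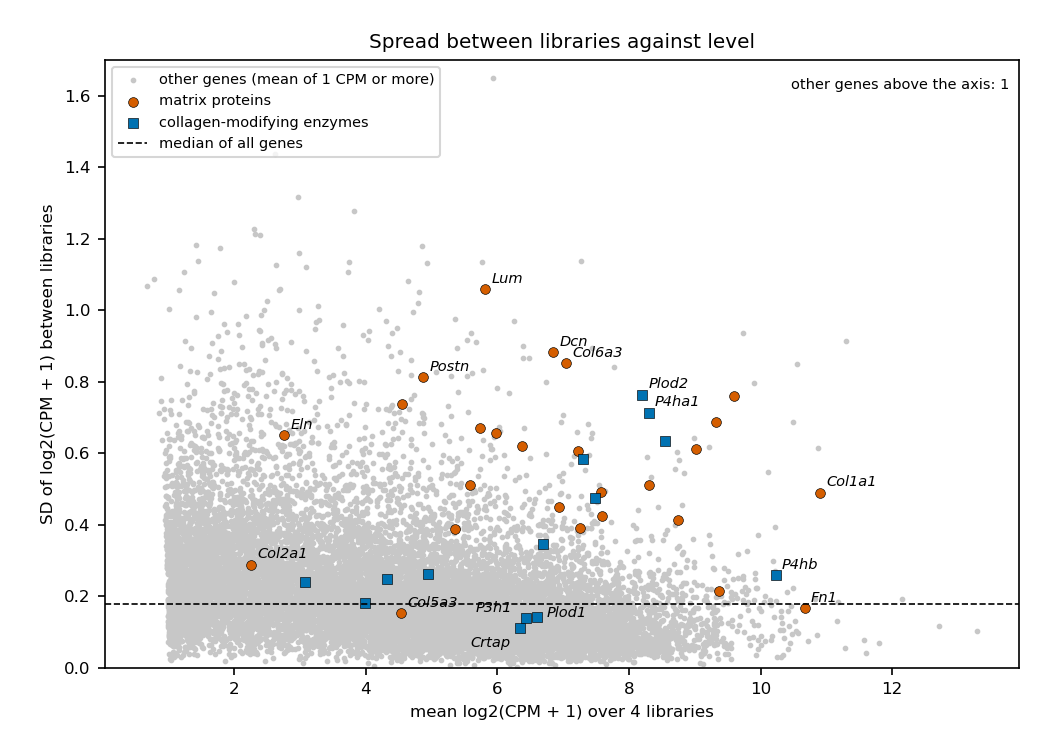
SD of log2(CPM + 1) over the 4 libraries against the mean level of each gene, with the 40 genes marked over all 15194 genes with a mean of 1 CPM or more. Lum (1.06) and Dcn (0.88) lie at the top and Crtap (0.11) at the bottom, and most of the 40 lie above the general cloud.

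Libraries 2 and 4 were the highest pair for 29 of the 40 genes, against 23.9% of all genes with a mean of 1 CPM or more. Libraries 1 and 2 were the highest for 6 (Col11a1, Postn, Thbs1, P4ha3, Lox and Loxl1), against 6.94% of all genes. Libraries 1 and 4 were highest for Thbs2, Loxl3 and Loxl4 (3 genes, against 11.6%), libraries 1 and 3 for Col2a1 (1 gene, against 38.7%), and libraries 3 and 4 for Col5a3 (1 gene, against 9.12%). Libraries 2 and 3 were the highest pair for none of the 40, against 9.79%. By TPM, Thbs1, Loxl1 and Loxl4 had libraries 2 and 4 as their highest pair and Col5a3 had libraries 2 and 3, since the scaling differs. Library 2 was the single highest for 27 of the 40, against 22.8% of all genes, library 4 for 10 (against 18.6%), library 1 for 2 (against 34.2%) and library 3 for 1 (against 24.3%). Library 3 was the lowest for 26, against 16.5%, library 1 for 12 (against 24.6%), library 2 for 2 (against 39.1%) and library 4 for 0 (against 19.8%). The median deviation of the 40 genes from their own mean was -0.29, 0.55, -0.45 and 0.18 on the log2(CPM + 1) scale in libraries 1 to 4, and that of all genes 0.03, -0.05, 0.03 and -0.02. By role, library 2 stood highest above the gene means for proteoglycans (1.10) and fibrillar collagens (0.73) and least for prolyl hydroxylation genes (0.23). With TMM scaling, libraries 2 and 4 were the highest pair for 32 of the 40, against 33.2% of all genes, and Thbs1, Loxl1 and Loxl4 were the genes that joined this pair.

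**Figure D4:**
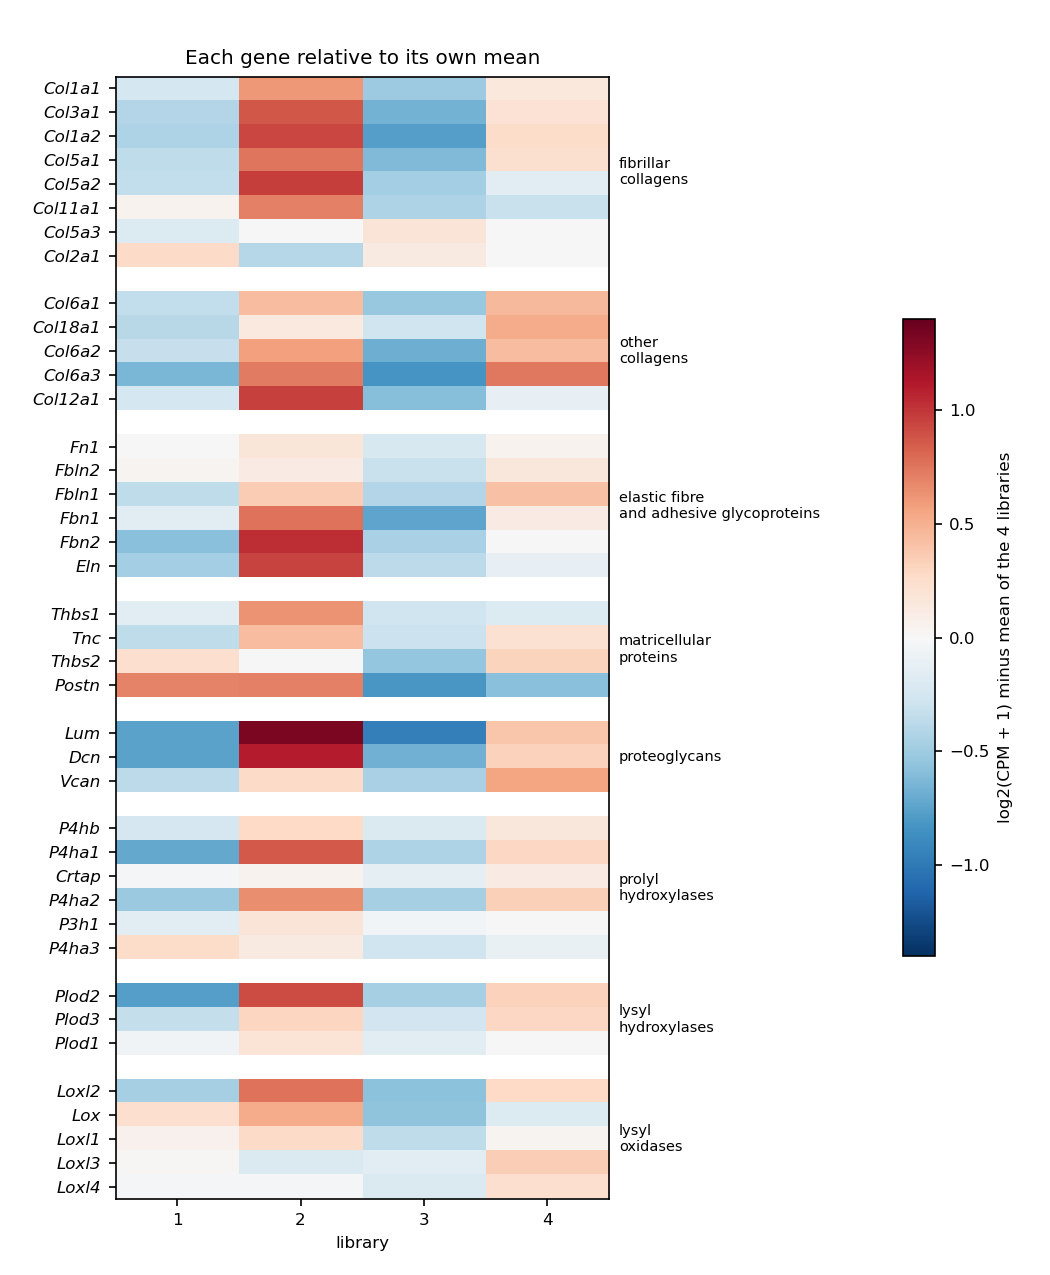
Each of the 40 genes in each library as its log2(CPM + 1) minus its mean over the 4 libraries, from blue (below) to red (above), grouped by role. Column 2 is red and columns 1 and 3 blue for most genes, while Postn is red in libraries 1 and 2 and Col2a1 is blue in library 2.

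In each of the 8 roles, libraries 2 and 4 held larger shares of counts than libraries 1 and 3. Fibrillar collagens held 0.320, 0.669, 0.265 and 0.452% of the counts of libraries 1 to 4, and the elastic fibre and adhesive group 0.250, 0.291, 0.208 and 0.270%. Prolyl hydroxylation genes held 0.148, 0.246, 0.155 and 0.210%, lysyl hydroxylases 0.0346, 0.0791, 0.0384 and 0.0591%, and lysyl oxidases 0.0544, 0.0952, 0.0422 and 0.0682%. Other collagens held 0.0822, 0.144, 0.0772 and 0.152%, matricellular proteins 0.0383, 0.0589, 0.0324 and 0.0412%, and proteoglycans 0.0247, 0.0615, 0.0237 and 0.0493%. Basement membrane genes, the other large matrix group, held 0.584, 1.604, 0.694 and 1.31%.

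**Figure D5:**
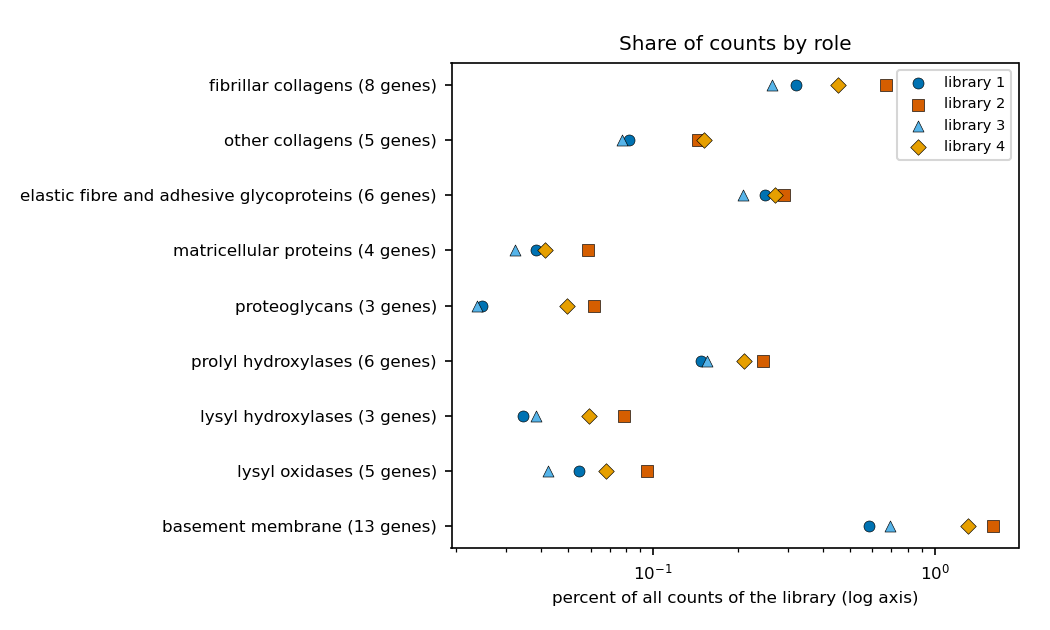
Percent of all counts (log axis) held by each role of the 40 genes and by the 13 basement membrane genes, 1 point per library. In every role libraries 2 and 4 lie right of library 3, and the fibrillar collagen share in library 2 reaches 0.669%.

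Each library was then set against the remaining 3 with the quasi-likelihood test of edgeR over 22186 genes. A single library has no spread of its own, and the test gives it that of the others. With the filter on low counts, none of the 40 genes passed an adjusted p of 0.05 in any library, against 0, 0, 0.00451 and 0% of all genes in libraries 1 to 4. An unadjusted p under 0.05, which is no call, was found for 22 of the 40 in library 2, all with positive fold changes, against 7.5% of all genes. The counts were 2 in library 1 (against 5.34%), 7 in library 3 (against 2.2%) and 2 in library 4 (against 1.81%). The 40 genes had a median log2 fold of 0.76 for library 2 over the others, against -0.02 over all genes, and 38 of them were positive. For library 3 the median was -0.79, against -0.02 over all genes, and 2 were positive. Col5a2 was the nearest to passing, with a log2 fold of 1.38 in library 2 (edgeR adjusted p = 0.294), followed by Thbs1 (0.94, edgeR adjusted p = 0.294) and Col12a1 (1.37, edgeR adjusted p = 0.310). DESeq2 called Col5a2, Col11a1, Col12a1, Fbn2, Eln and Thbs1 as higher in library 2, which is 6 of the 40 against 0.446% of all genes tested, and none of the 40 in libraries 1, 3 and 4, against 0.0719, 0.0102 and 0.0102% of all genes. Without the filter on low counts, edgeR called 22 of the 40 for library 2, against 1.19% of all genes, and 11 for library 1, against 0.836%, so the outcome of this test depended on the filter. That fit called 0 of the 40 for libraries 3 and 4, against 0.00255 and 0.0153% of all genes. Leaving out 1 library of the remaining 3 gave many calls where the other side was a close pair: without library 4, 32 of the 40 were called for library 2, against 14% of all genes, and without library 1, 31 were called for library 3, against 5.77%. Without library 3, 24 of the 40 were called for library 1 (against 9.01% of all genes), and without library 2, 22 for library 4 (against 7.41%), since the spread then came from 2 similar libraries.

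Marker lists of other cell types differed in whether they followed the same libraries. Of all genes with a mean of 1 CPM or more, 23.9% were highest in libraries 2 and 4 and 38.7% in libraries 1 and 3. All 14 parietal endoderm markers, of which 6 are matrix genes themselves, were highest in libraries 2 and 4, with summed levels of 3291, 10516, 4003 and 8061 TPM in libraries 1 to 4 and none at 0. Fibroblast and mesenchyme markers were highest in libraries 2 and 4 for 9 of the 12 with a mean of 1 CPM or more. Of the 16 listed 11 were expressed, with sums of 963, 1359, 917 and 1290.2 TPM. Vim was the highest at 502 ± 58.5 TPM and Meox2 the lowest at 0.218 ± 0.183 TPM (SD, n = 4). The pluripotency markers went the other way, with 9 of 10 highest in libraries 1 and 3 and sums of 8184, 4557, 7465 and 5524 TPM. Hepatic stellate markers summed to 198, 197, 174 and 189 TPM, with 5 of 10 expressed. Des was the highest at 66.5 ± 15.9 TPM and Lrat, a defining marker, the lowest at 0.0482 ± 0.0307 TPM (SD, n = 4). Hepatocyte markers summed to 12.6, 64.4, 14.1 and 30.3 TPM, and the 5 with a mean of 1 CPM or more were highest in libraries 2 and 4. Of the chondrocyte markers 5 of 6 with that mean were highest in libraries 2 and 4, of the endothelial markers 3 of 6, of the visceral endoderm markers 6 of 10, of the hepatic stellate markers 2 of 6 and of the smooth muscle markers 0 of 5. Visceral endoderm markers summed to 965, 1011, 1001 and 909.5 TPM, and smooth muscle markers to 135, 222, 144 and 114 TPM. The part of these cell types in the differences between libraries was not tested.

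Genes that fold and export collagen were expressed in 19 of 20 cases. Serpinh1, a collagen chaperone, led at 468, 1302, 598 and 1065 TPM, highest in libraries 2 and 4, and Colgalt2, a collagen sugar transferase, was at 0.0903 ± 0.121 TPM (SD, n = 4). In this list 14 of the 19 genes with a mean of 1 CPM or more were highest in libraries 2 and 4, against 23.9% of all genes. The median SD of log2(CPM + 1) in the list was 0.21. Of the 8 genes that trim procollagen, 7 were expressed. Pcolce, the enhancer of the C-proteinase, led at 178 ± 23.97 TPM (SD, n = 4), and Tll2, a proteinase, had 3 counts or fewer in every library. Basement membrane genes were expressed in 11 of 13 cases, led by Col4a1 at 1503 ± 906 TPM (SD, n = 4), with Col4a3 at 0.0225 ± 0.0211 TPM. Of the 11 with a mean of 1 CPM or more, 9 were highest in libraries 2 and 4, against 23.9% of all genes.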

How the data were processed

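The authors' deposited files hold unnormalized read counts for each gene. Alignment with STAR and counting with featureCounts on GRCm39 (mm39) are named per the submitters' processing notes. Tool versions, options and the gene annotation were not given in the sources used here. Per the labels' protocols, polyadenylated RNA was made into paired-end libraries without strand. Even numbers made up 60.0 to 62.6% of counts from 1 to 8, so pair ends may have been counted singly.

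CPM used the total count. TPM used union exon lengths of GENCODE M21 (GRCm38), which matched 48700 rows with 98.7 to 98.9% of the counts. The exon overlaps given for Fbn1, Plod3 and Loxl3 also come from M21. Whether they hold in the annotation used for counting is not known. Log values had 0.1 added to TPM and 1 added to CPM. Each library was compared with the other 3 in edgeR (4.0.16; TMM, filterByExpr, quasi-likelihood, Benjamini-Hochberg over all genes tested) and in DESeq2 (1.42.0). The edgeR script was also run on simulated data, with the same dispersion for all genes and no close pairs of libraries. That run does not show how the test behaves on these libraries. Other steps used Python 3.11.15, pandas 2.3.3, SciPy 1.17.1 and R 4.3.3. Promoters came from RefSeq (GRCm38.p6). The alternatives were CPM, other thresholds and pseudocounts, longest transcript lengths, other scaling factors, no count filter, halved counts and leaving out each library.

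The genes, lists and pairs were chosen with earlier results of these data known. Every one of the 40 genes may be named; of other lists the highest and lowest members and those at 3 counts or fewer, and any other gene is marked as chosen after its values were seen. In the tests of a single library against the other 3, the p-values rest on the spread among those 3 cultures. They apply to these 4 cultures only.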

Additional observations from a re-analysis of the deposited data

Results flagged for a closer look

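In 72 values tested for a library far from the other 3, chance alone flags about 1 in 20, and 2 stood apart. That is no more than chance alone would flag. Col5a2 had 50.5 TPM in library 2, against 17.4 to 22.5 TPM in the others. Thbs1 had 193 TPM in library 2, against 97.04 to 106 TPM in the others.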

How the results depend on the processing

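All 40 genes were expressed at 0.5 TPM and without each library in turn, and 37 at 5 TPM. With CPM in place of TPM the median level of the 40 genes was 6.88, against 3.04 for all protein-coding genes. Their share of summed TPM was 0.744%, against 1.19% of counts. Without 1 library at a time, the median SD was 0.336 to 0.555, and the genes at least 2 times higher in 1 library than in another numbered 9 to 21. The alternative of leaving libraries out for that count was chosen after seeing the data, and the genes above the 90th percentile of SD then numbered 19 to 26. For the genes called in libraries 1 to 4 against the rest, DESeq2 gave 14, 80, 4 and 4. Without a filter on low counts edgeR gave 328 for library 1, 469 for library 2 and 6 for library 4, with 11, 22 and 0 of the 40 among them. With counts halved it gave 0 for library 3, where Gm2007 (chosen after its values were seen) had been the single call. Without 1 library, the calls ranged from 0 to 1947 in library 1, 0 to 3030 in library 2, 0 to 1233 in library 3 and 0 to 1593 in library 4. The longest transcript moved 9 of 23 pair ratios by more than their SD and CPM 13, with the mean of P3h1 over Crtap at 0.09 and of Lum over Dcn at -1.05 in CPM. Leaving out a library moved 0 of 92, an outcome fixed in advance. Dropping 1 of 4 values cannot shift their mean by as much as their SD. No paired analysis was possible because the 4 libraries form 1 group.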

Other observations

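Further matrix genes outside the 40 were measured too. Of 14 other interstitial collagens 11 were expressed, 3 with a mean of 10 TPM or more and 0 with 100 TPM or more. Col15a1 led them at 27.2 ± 4.01 TPM (SD, n = 4), and Col9a1 was lowest at 0.0628 ± 0.0830 TPM. Of 9 other proteoglycans 4 were expressed, led by biglycan (Bgn) at 115, 139, 84.7 and 144 TPM in libraries 1 to 4, and Omd had 3 counts or fewer in each library. Of 24 other matrix glycoproteins 18 were expressed. Sparc, a collagen-binding protein, led them at 1231, 3236, 1346 and 2327 TPM, and vitronectin (Vtn), a plasma protein made by hepatocytes, was lowest at 0.281 ± 0.335 TPM. In that list 13 of 19 genes with a mean of 1 CPM or more were highest in libraries 2 and 4, against 23.9% of all genes. Of 8 endothelial and 6 smooth muscle markers 5 and 4 were expressed. Endothelial markers ran from Emcn at 0.00888 ± 0.0178 TPM to Pecam1 at 45.4 ± 10.5 TPM. Smooth muscle markers ran from Myh11 at 0.444 ± 0.0996 TPM to Acta2 at 124 ± 47.4 TPM. Visceral endoderm markers were expressed in 9 of 10 cases, led by Apoe at 609 ± 21.8 TPM.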
